A study of Homo sapiens with 14 samples.

Results

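The genes described here make the DNA replication machine and supply its nucleotides. They are 44 genes of the 61541 in the deposited count table, taken as the table's Ensembl identifiers that map to a list of 44 symbols. All 44 were found, and all 44 passed the low-count filter that left 18963 genes for testing. They were read in Jurkat cells, a human T-cell acute lymphoblastic leukaemia line, after chemical or genetic interference with KSR2, which holds RAF, MEK and ERK kinases together. By role they fall into 11 genes of origin licensing, 8 of helicase activation, 12 of DNA synthesis, 6 of strand maturation and chromatin, 5 of nucleotide supply, and the G1/S regulators *CCNE2* and *E2F2*.

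Before S phase, the origin recognition complex, CDC6 and CDT1 load the MCM2-7 helicase onto DNA, a step called licensing that geminin (encoded by *GMNN*) blocks by binding CDT1. The DBF4-dependent kinase CDC7, CDC45, the GINS complex and MCM10 then turn the loaded helicase on, and the DNA polymerases, the clamp loader and the sliding clamp copy the strands. Ribonucleotide reductase, thymidylate synthase, thymidine kinase and CAD make the nucleotide precursors. Many of these genes are transcribed by E2F factors once RB-family proteins release them at the G1/S boundary, so cycling leukaemia cells hold high levels of their transcripts.

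Polyadenylated RNA was sequenced from 14 libraries in 5 groups that were all the same Jurkat line. The chemical arm compared the small molecule APS-2-79, labelled as a KSR inhibitor (KSRi, n = 3), with its DMSO control (n = 3). Cells carrying guide 1 (n = 3) or guide 2 (n = 3) against *KSR2* had cells with a non-targeting guide (NT, n = 2) as controls. The labels call the genetic arm a CRISPR knockout in 1 place and CRISPR interference in another, and the library names of its control speak of a hairpin, so the groups are named here by guide. Dose, time of treatment, time in culture with the guides and whether the guide cells were clones were not found in the labels. Nothing there states that replicates came from separate cultures; a p-value therefore reflects the spread of these libraries alone, and that spread may be technical. In bulk RNA, fewer cells in S phase and less transcript per cell cannot be told apart.

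Library totals ran from 21710466 to 45897075 counts. *KSR2* stood at 37.0 CPM (the usual counts-per-million unit, on scaled library sizes) with DMSO, 34.3 with KSRi, 29.5 with NT, 0.541 with guide 1 and 0.766 with guide 2, so the guide libraries matched their labels. All 10 T-lineage markers were above 1 CPM in every library. Of 11 markers of other lineages 8 stayed below 1 CPM and 3 of these (*CSF1R*, *HBB*, *EPCAM*) were at 0 in all libraries, whereas *CD79A*, *PECAM1* and *COL1A1* were present in all, at 5.86 to 91.7 CPM. KSRi replicate 1 stood apart from KSRi replicates 2 and 3: 43 of the 44 replication genes lay below the DMSO mean in it against 27 in each of the others, and its T-lineage marker sum was 2071 CPM, near the 2142 to 2203 with DMSO, against 2719 and 2572. With KSRi 4 of the 10 T-lineage markers rose and none fell. Its mitochondrial share of counts was 2.51% against 2.06% and 1.12%, and 1.27% to 1.45% with DMSO. The part of these differences in the results was not tested. Counts of calls among the 44 and in the other gene lists are given with and without KSRi replicate 1. Counts of genes whose libraries did not overlap, and octamer shares among called genes, include it.

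The starts of these genes were examined first for the letters that E2F factors are known to bind. The choice of genes did not use the letters directly, but many of these genes are known to be transcribed by E2F factors. The share with such letters is therefore not independent of the choice. The comparison with all genes was not matched for expression or base composition. Windows of 300 bases, from 250 before to 50 after an annotated start (RefSeq, GRCh38.p14), were available for 39 of the 44 genes, 9 of them with several starts; *CCNE2*, *RPA2*, *MCM5*, *MCM4* and *GINS4* had no window. An E2F-type octamer (TTTCCCGC, TTTGGCGC, TTTCGCGC or TTTGCCGC, read on both strands) was present at 21 of the 39 genes (53.8%), against 1090 of all 27305 genes with a window (3.99%). It was present at 7 of 9 licensing genes, 4 of 7 of helicase activation, 5 of 11 of synthesis, 3 of 6 of maturation and chromatin, and 1 of 5 of nucleotide supply. Genes outside the 44 held it too: 10 of 33 further replication genes with a window (30.3%) and 5 of 13 of the E2F and RB axis (38.5%). Of 19 mitotic genes with a window 2 held it (10.5%). It was at 2 of 13 purine synthesis genes (15.4%) and 2 of 19 other pyrimidine and dNTP genes (10.5%). The CCAAT box, a common promoter element, was at 24 of the 39 (61.5%) and at 39.7% of all genes.

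Below are the 160 bases before an annotated start of 8 of these genes, 5′ to 3′ on the gene's strand, with E2F-type octamers in capitals. The first listed RefSeq start was used where a gene had several. For *CDT1*, *UHRF1* and *FEN1* the stretch lies inside the gene span given further below, and for *RFC3* and *PRIM1* it overlaps that span in part. These spans come from another annotation. The genes were picked by their expression results, and no link between letters and expression was tested. *CDT1* rose with the inhibitor, *RFC3*, *POLA1*, *MCM6* and *UHRF1* fell, and *PCNA* did not pass the test. *FEN1* and *PRIM1* were the extremes of the difference between the control groups. In this order the stretches lie at chr16:88803629-88803788 (plus strand), chr13:33817989-33818148 (plus), chrX:24693758-24693917 (plus), chr2:135876444-135876603 (minus), chr19:4909341-4909500 (plus), chr20:5126623-5126782 (minus), chr11:61792751-61792910 (plus) and chr12:56752324-56752483 (minus).
CDT1: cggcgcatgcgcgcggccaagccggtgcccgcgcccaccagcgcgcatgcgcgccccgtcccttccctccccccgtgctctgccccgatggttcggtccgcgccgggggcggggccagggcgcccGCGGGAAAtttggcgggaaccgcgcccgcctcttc
RFC3: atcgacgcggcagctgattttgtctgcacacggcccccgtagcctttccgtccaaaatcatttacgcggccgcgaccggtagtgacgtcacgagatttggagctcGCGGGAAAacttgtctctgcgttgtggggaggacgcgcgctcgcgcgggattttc
POLA1: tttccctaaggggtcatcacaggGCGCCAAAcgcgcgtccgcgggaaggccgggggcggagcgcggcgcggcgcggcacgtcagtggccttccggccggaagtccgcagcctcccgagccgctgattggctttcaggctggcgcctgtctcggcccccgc
MCM6: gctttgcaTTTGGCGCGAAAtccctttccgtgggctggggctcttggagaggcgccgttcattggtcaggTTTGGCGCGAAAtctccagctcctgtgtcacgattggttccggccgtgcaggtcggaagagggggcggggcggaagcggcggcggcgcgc
UHRF1: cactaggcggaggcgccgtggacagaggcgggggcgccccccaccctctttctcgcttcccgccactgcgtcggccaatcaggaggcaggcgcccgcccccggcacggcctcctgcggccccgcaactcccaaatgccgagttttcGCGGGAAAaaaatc
PCNA: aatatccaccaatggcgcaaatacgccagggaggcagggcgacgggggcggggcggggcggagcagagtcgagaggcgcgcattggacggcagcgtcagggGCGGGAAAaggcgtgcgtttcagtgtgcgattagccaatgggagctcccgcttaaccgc
FEN1: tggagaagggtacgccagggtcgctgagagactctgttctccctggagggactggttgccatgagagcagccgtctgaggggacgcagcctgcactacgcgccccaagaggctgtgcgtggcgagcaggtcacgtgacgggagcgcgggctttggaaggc
PRIM1: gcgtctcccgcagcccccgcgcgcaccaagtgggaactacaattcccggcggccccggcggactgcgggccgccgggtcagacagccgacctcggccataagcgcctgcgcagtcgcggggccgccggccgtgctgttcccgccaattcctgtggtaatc

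In *MCM6* the octamers TTTGGCGC and, on the other strand, TTTCGCGC overlap and form the same 12-base run TTTGGCGCGAAA at 2 places. The *CDT1*, *RFC3*, *UHRF1* and *PCNA* windows hold TTTCCCGC on the strand opposite the gene, printed as GCGGGAAA, and *POLA1* holds TTTGGCGC there. Neither *FEN1* nor *PRIM1* holds 1 of these 4 octamers in the window searched. A match is a description of letters and was not tested as a binding site.

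**Figure D1:**
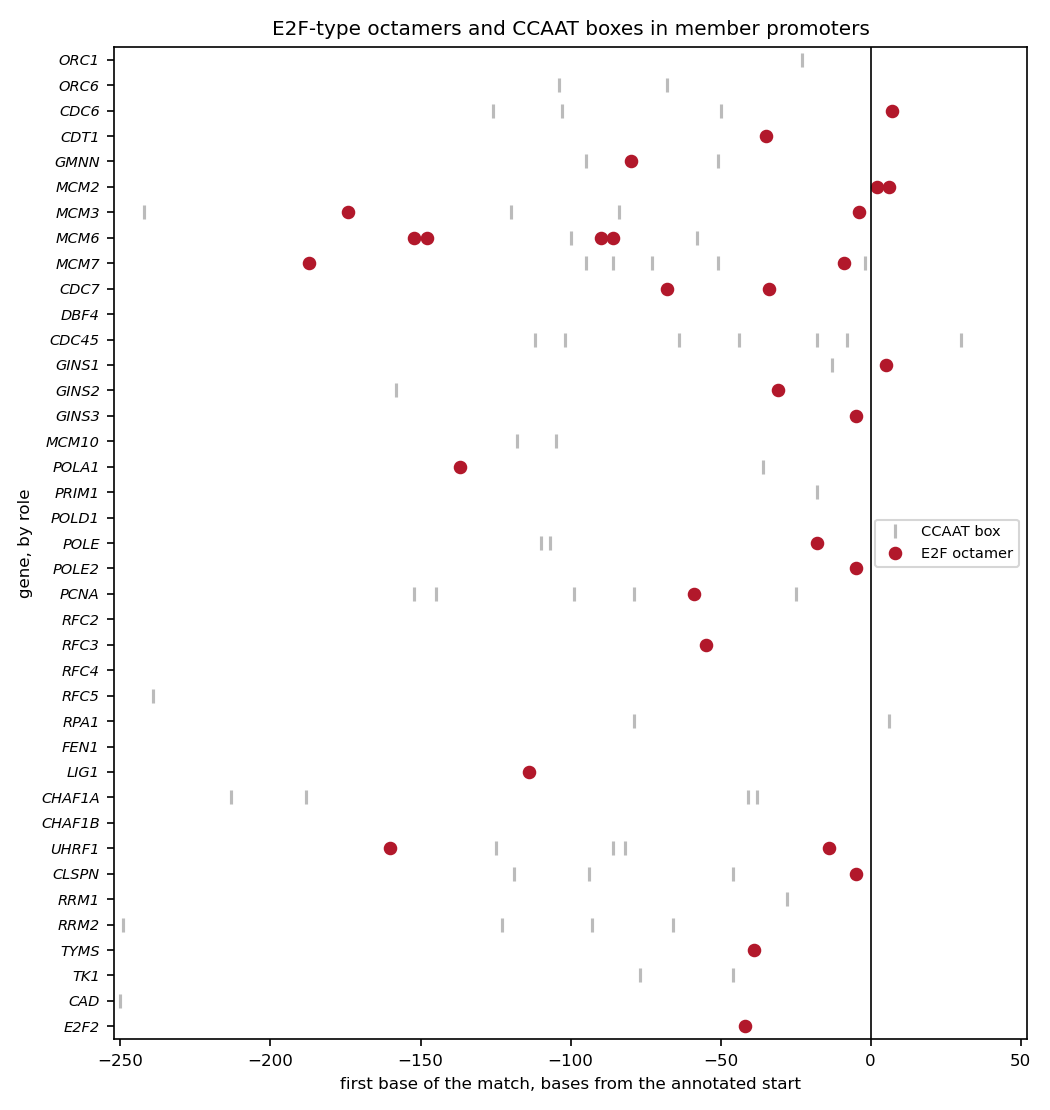
Positions of E2F-type octamers (red dots) and CCAAT boxes (grey ticks) around the annotated starts of the 39 genes with a window. The horizontal axis is the first base of the match in bases from the start, which is at 0, and matches from several starts of a gene share a row; 21 genes hold an octamer.

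Levels between genes were compared per kilobase of exon. In DMSO cells *TYMS*, encoding thymidylate synthase, stood highest at 366 ± 22.0 CPM per kilobase (SD, n = 3), followed by the sliding clamp gene *PCNA* at 259 ± 27.4 and the helicase gene *MCM7* at 170.0 ± 8.93. The MCM2-7 subunits spanned 46.6 (*MCM5*) to 170.0 CPM per kilobase although the helicase holds 1 of each. The lowest were *GINS4*, *GINS3* and *POLE2*, at 14.8 ± 0.37, 14.3 ± 1.05 and 13.7 ± 0.62. *GINS3* lay within the spread of either neighbour, while the libraries of *GINS4* and *POLE2* did not overlap. Unions of all annotated exons were used as lengths, so a gene with long rarely used exons reads low.

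The summed level of the 44 genes was 10737 ± 218 CPM with DMSO and 9944 ± 1001 with KSRi (SD, n = 3 each), 92.6% of it. In the KSRi libraries it was 8835, 10218 and 10779 CPM, so the sums overlapped those with DMSO, 10485 to 10875. With NT it was 5864 ± 94 (n = 2), 54.6% of the DMSO level, with guide 1 5731 ± 233 and with guide 2 5889 ± 55 (n = 3 each). All 8 libraries of the guide arm lay below all 6 of the inhibitor arm.

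**Figure D2:**
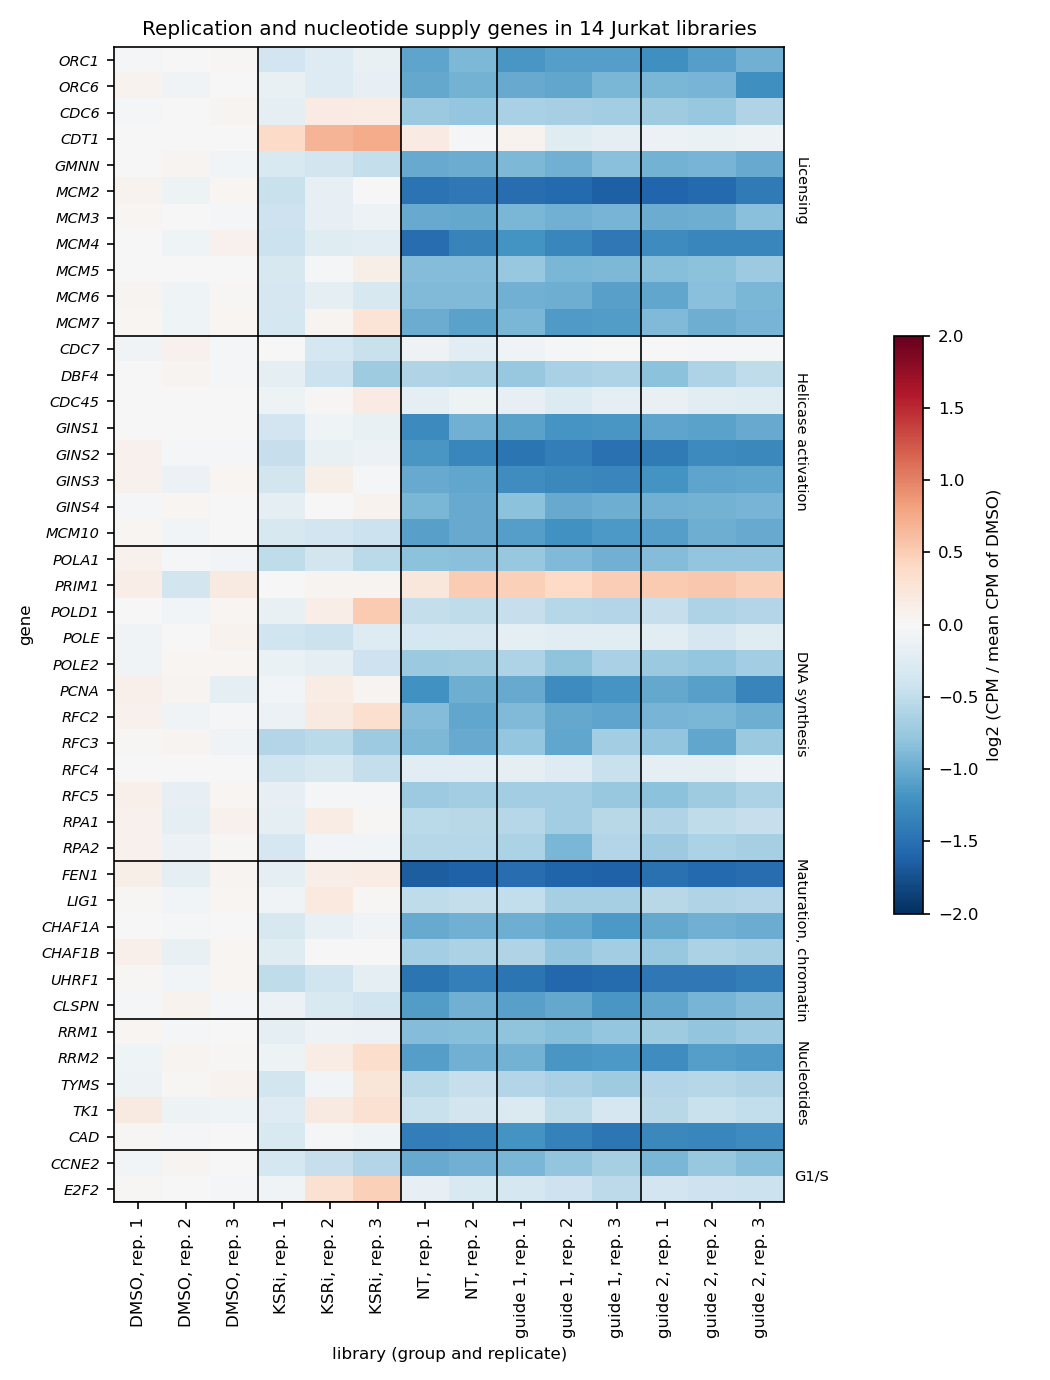
Level of each of the 44 genes (rows, by role) in each of the 14 libraries (columns, by group and replicate), as log2 of CPM over the mean CPM with DMSO; blue is lower and red higher. The NT and guide columns are blue for nearly all genes, as is that of KSRi replicate 1 (43 of 44 genes below the DMSO mean), while KSRi replicates 2 and 3 are mixed (27 of 44 each); *CDT1* is red in all 3 KSRi columns.

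To see what the inhibitor did to these genes, KSRi was compared with DMSO by edgeR's quasi-likelihood test with Benjamini-Hochberg adjustment over all 18963 genes and a threshold of 0.05. Of the 44 genes 18 fell, 1 rose and 25 did not pass. Of all tested genes 18.7% fell and 22% rose, 40.7% in either direction. The median log2 change of the 44 was −0.14, that of all tested genes 0.02. Falls were small: *RFC3* fell most, to 119 from 182 CPM, and *RFC3* and *CDT1* were the 2 changed genes that reached 1.5-fold. Libraries did not overlap for 20 genes on the lower side (21.9% of all tested genes) and for 1 on the higher side (25% of all). The rise of *CDT1* was called under all 14 alternatives of fit, scaling, filter or library at the 0.05 threshold. So were 11 of the 18 falls (*ORC1*, *GMNN*, *MCM6*, *DBF4*, *MCM10*, *POLA1*, *POLE*, *RFC3*, *RFC4*, *UHRF1* and *CCNE2*). At an adjusted p under 0.01 in the main fit 11 genes fell and 1 rose, and *ORC1* was not among them.

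When KSRi replicate 1 was left out, 16 genes fell and 7 rose. Of the 16 falls 15 were among the 18, *ORC6* was added, and *MCM3*, *GINS2* and *CHAF1A* were lost. The added rises were *CDC6*, *E2F2*, *RRM2*, *TK1*, *RFC2* and *POLD1*. By role, 5 licensing genes fell and 2 rose, 3 of helicase activation fell, and 5 of synthesis fell and 2 rose. Of maturation and chromatin 2 fell, of nucleotide supply 2 rose, and of the G1/S regulators 1 fell and 1 rose. The median log2 change of the 44 was then −0.07, and 21.2% of all tested genes fell and 25.9% rose. In KSRi replicate 1 alone the median log2 ratio to the DMSO mean was −0.28, and it was −0.07 and −0.06 in replicates 2 and 3.

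**Figure D3:**
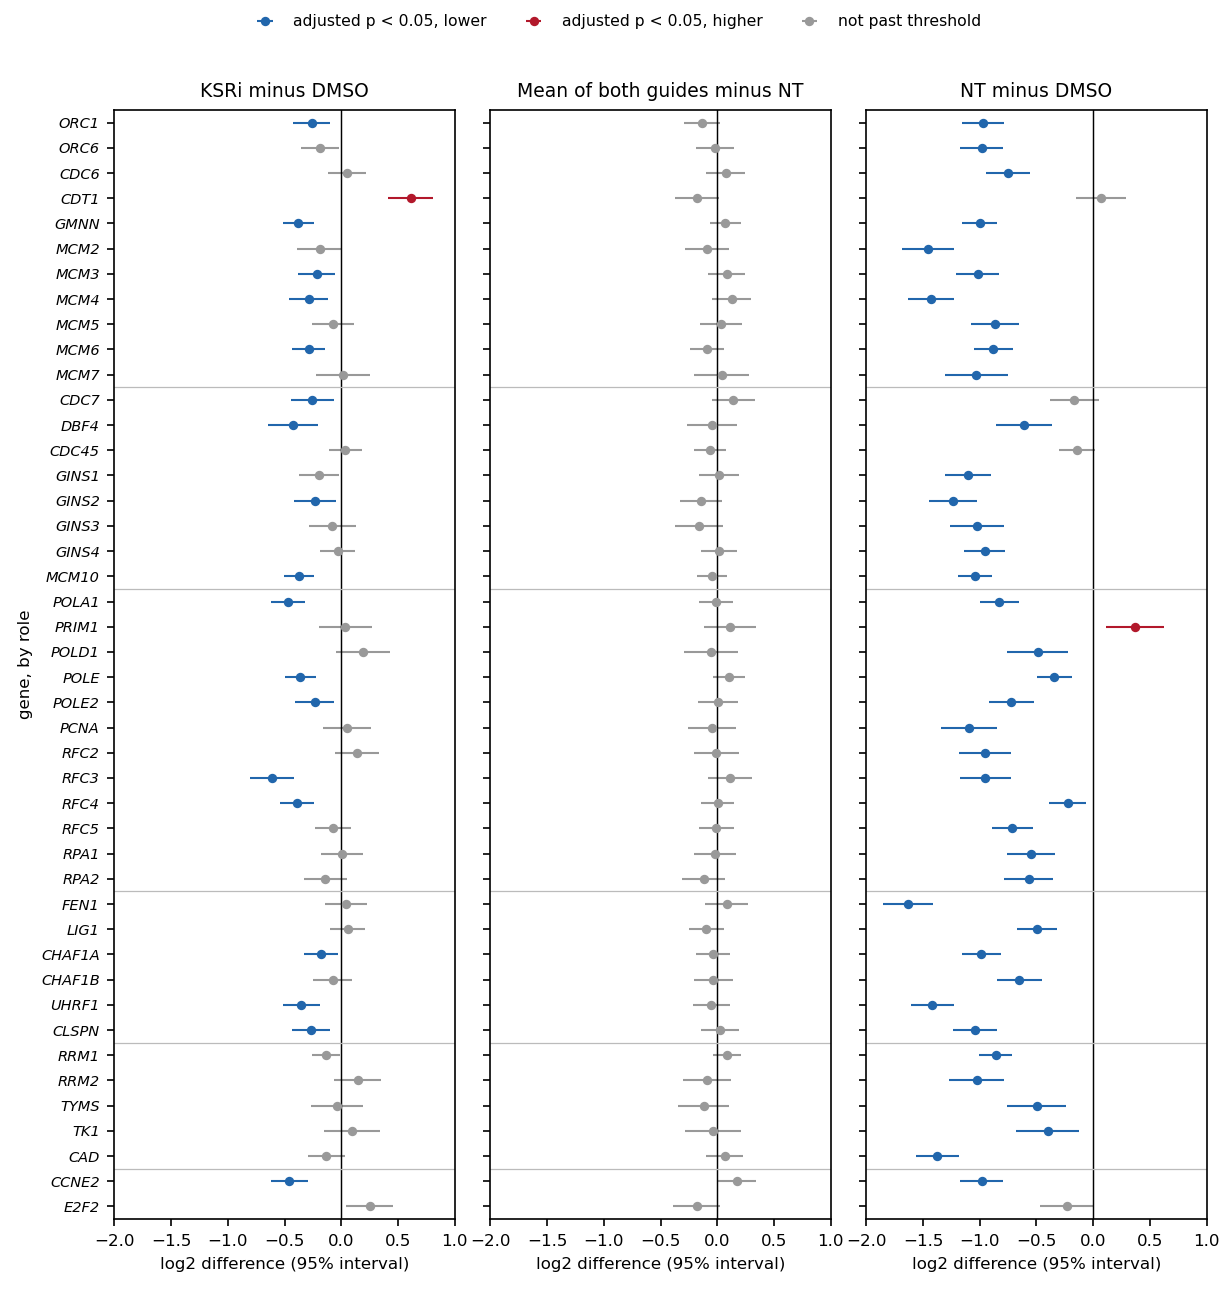
Log2 differences of the 44 genes (rows, by role) with 95% intervals for KSRi minus DMSO (left), both guides minus NT (middle) and NT minus DMSO (right); blue points passed the test as lower, red as higher and grey did not pass. The left panel has 18 blue points and 1 red (*CDT1*), the middle panel has none, and the right panel has 39 blue and 1 red (*PRIM1*).

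Among the 11 licensing genes, the loading factor and its inhibitor moved in opposite directions. *CDT1* (ENSG00000167513; chromosome 16, 88803213 to 88809258, GRCh38) stood at 110.0, 111 and 109 CPM in the DMSO libraries and 144, 177 and 183 in the KSRi libraries. Each KSRi library was above each DMSO library, by 0.61 ± 0.09 on the log2 scale (SE, adjusted p = 6.97e-05). *GMNN* (ENSG00000112312; chromosome 6, 24774931 to 24786099), encoding geminin, stood at 94.6, 97.6 and 90.8 with DMSO and 76.1, 73.3 and 68.1 with KSRi, and fell in every library (log2 change −0.38 ± 0.06 (SE), adjusted p = 0.000188). The ratio of *CDT1* to *GMNN* CPM, chosen after these values were seen, was 1.13 to 1.20 with DMSO and 1.89, 2.41 and 2.70 with KSRi. It was 2.26 and 2.64 with NT and 1.84 to 2.27 with the guides.

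Of the 6 subunits of the MCM2-7 helicase 3 fell (*MCM3*, *MCM4*, *MCM6*) and 3 did not pass the test, with log2 differences between −0.29 and 0.01. *MCM6* stood at 430.0, 387 and 422 CPM with DMSO and 326, 359 and 329 with KSRi (log2 change −0.29 ± 0.07 (SE), adjusted p = 0.00354). *MCM4* stood at 587, 553 and 624 with DMSO and 439, 496 and 511 with KSRi (log2 change −0.29 ± 0.08 (SE), adjusted p = 0.00884). For both genes all KSRi libraries were below all DMSO libraries. *MCM7* stood at 583, 776 and 898 CPM with KSRi, on both sides of its DMSO range of 701 to 769, with replicate 1 lowest. *ORC1*, the largest origin recognition subunit, fell by 0.26 on the log2 scale (adjusted p = 0.0113). *CDC6*, the ATPase that loads the helicase with CDT1, differed by 0.05 (−0.12 to 0.22, 95% interval) and did not pass.

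Of the 8 helicase activation genes 4 fell and none rose. *MCM10*, which is needed for the helicase to start unwinding, stood at 191, 178 and 185 CPM with DMSO and 148, 142 and 136 with KSRi (log2 change −0.37 ± 0.06 (SE), adjusted p = 0.000148). *DBF4*, the activating subunit of the CDC7 kinase, stood at 104, 109.7 and 102 with DMSO and 91.9, 78.4 and 64.2 with KSRi (log2 change −0.43 ± 0.10 (SE), adjusted p = 0.00348). Its KSRi libraries lay below all DMSO libraries, but spread over more than the DMSO range. *CDC7* itself stood at 112, 125 and 117 with DMSO and 118, 92.1 and 86.8 with KSRi (log2 change −0.26 ± 0.09 (SE), adjusted p = 0.0318), and the library that overlapped DMSO was KSRi replicate 1. The GINS subunit *GINS2* stood at 67.4, 62.0 and 62.0 with DMSO and 46.6, 57.8 and 58.6 with KSRi (log2 change −0.23 ± 0.09 (SE), adjusted p = 0.0401). The fall of *GINS2* was not called under 6 of 14 alternatives, among them those without KSRi replicate 1 and without any 1 DMSO library. That of *CDC7* was also lost under 6 of 14. *GINS1*, *GINS3*, *GINS4* and *CDC45* did not pass, with log2 differences of −0.20, −0.08, −0.03 and 0.04.

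The 12 synthesis genes split by subunit. *RFC3* (ENSG00000133119; chromosome 13, 33818049 to 33966558), a clamp loader subunit, stood at 185, 188 and 172 CPM with DMSO and 122, 125 and 110.4 with KSRi, and fell (log2 change −0.61 ± 0.09 (SE), adjusted p = 6.65e-05). *RFC4* stood at 98.8, 99.0 and 98.3 with DMSO and 75.1, 79.4 and 70.8 with KSRi (log2 change −0.39 ± 0.07 (SE), adjusted p = 0.000304). The member genes *RFC2* and *RFC5* of the clamp loader differed by 0.13 and −0.07 on the log2 scale and did not pass. Its large subunit *RFC1*, which is not a member, fell by 0.29 (adjusted p = 0.0104). *POLA1* (ENSG00000101868; chromosome X, 24693919 to 24996986), the catalytic subunit of the polymerase that starts each strand, stood at 115, 106 and 104 with DMSO and 76.3, 83.9 and 74.3 with KSRi (log2 change −0.47 ± 0.07 (SE), adjusted p = 6.93e-05). *PRIM1*, the primase subunit that makes the RNA primer in the same complex, stood at 50.5, 35.7 and 52.3 with DMSO and 46.0, 48.1 and 47.9 with KSRi and did not pass (log2 difference 0.04, 95% interval −0.20 to 0.27).

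The 2 member genes of leading-strand DNA polymerase epsilon fell. *POLE* stood at 253, 267 and 281 CPM with DMSO and 203, 198 and 222 with KSRi (log2 change −0.36 ± 0.07 (SE), adjusted p = 0.000371), and *POLE2* changed by −0.23 (adjusted p = 0.0312). Of its accessory subunits, which are not members, *POLE3* also fell (−0.30, adjusted p = 0.0162) and *POLE4* rose (0.29, adjusted p = 0.0149), so the subunits did not move together. The catalytic subunit of lagging-strand polymerase delta did not pass: *POLD1* stood at 201, 193 and 205 with DMSO and 181, 218 and 286 with KSRi, higher than every DMSO library in replicates 2 and 3 only. *PCNA*, the sliding clamp, stood at 411, 397 and 335 with DMSO and 367, 423 and 395 with KSRi (log2 difference 0.05, 95% interval −0.16 to 0.26). The single-strand binding genes *RPA1* and *RPA2* differed by 0.00 and −0.14 and did not pass, while *RPA3*, not a member, rose by 0.37 (adjusted p = 0.00742).

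Of the 6 maturation and chromatin genes 3 fell. *UHRF1* (ENSG00000276043; chromosome 19, 4903080 to 4962154), which brings the maintenance DNA methyltransferase to newly copied DNA, stood at 590.2, 559 and 599.8 CPM with DMSO and 410.0, 442 and 517 with KSRi (log2 change −0.35 ± 0.08 (SE), adjusted p = 0.00158). *CLSPN*, encoding the fork protein claspin, stood at 185, 198 and 185 with DMSO and 175, 152 and 143 with KSRi (log2 change −0.27 ± 0.08 (SE), adjusted p = 0.0116). *CHAF1A*, the large subunit of the histone chaperone CAF-1, stood at 227, 222 and 227 with DMSO and 179, 202 and 215 with KSRi (log2 change −0.18 ± 0.07 (SE), adjusted p = 0.0491), a call that was lost under 8 of 14 alternatives. Its partner *CHAF1B* stood at 83.3, 70.5 and 79.8 with DMSO and 66.0, 78.3 and 77.3 with KSRi and did not pass. The Okazaki fragment genes *FEN1* (flap nuclease) and *LIG1* (DNA ligase) differed by 0.04 and 0.06 on the log2 scale and did not pass either.

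None of the 5 nucleotide supply genes passed with the inhibitor by edgeR, and 1 had an unadjusted p under 0.05. DESeq2 and a filter of 5 CPM in 3 libraries each called *RRM1* lower. *RRM1*, the large subunit of ribonucleotide reductase, stood at 457, 431 and 447 CPM with DMSO and 390.0, 416 and 412 with KSRi (log2 difference −0.13 ± 0.06, adjusted p = 0.0825). *RRM2*, its small subunit, stood at 550.5, 613 and 598 with DMSO and 546, 653 and 749 with KSRi (0.15 ± 0.10, adjusted p = 0.259). The subunits' differences thus had opposite signs, with *RRM1* below DMSO in all KSRi libraries and *RRM2* overlapping. *CAD*, which starts pyrimidine synthesis, stood at 424, 413 and 421 with DMSO and 341, 414 and 393 with KSRi, and *TK1*, thymidine kinase, at 33.3, 27.3 and 27.8 and 24.7, 33.3 and 36.3. *TYMS* differed by −0.04 (95% interval −0.27 to 0.19). With that comparison run without KSRi replicate 1, *RRM2* and *TK1* rose and the other 3 did not pass.

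Of the G1/S regulators, *CCNE2*, encoding cyclin E2, fell in every library, from 65.2, 70.4 and 68.3 CPM with DMSO to 53.2, 49.7 and 45.5 with KSRi (log2 change −0.46 ± 0.08 (SE), adjusted p = 0.000216). *E2F2*, an activating E2F factor, stood at 121, 119 and 117 with DMSO and 113, 146 and 165 with KSRi (0.25 ± 0.10, adjusted p = 0.0532) and just missed the threshold. Its KSRi replicate 1 was below all DMSO libraries and replicates 2 and 3 were above them. An E2F-type octamer was present at 11 of the 16 genes that fell and have a window (68.8%), at 9 of the 22 that did not pass (40.9%) and at *CDT1*. These shares were not tested against each other.

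**Figure D4:**
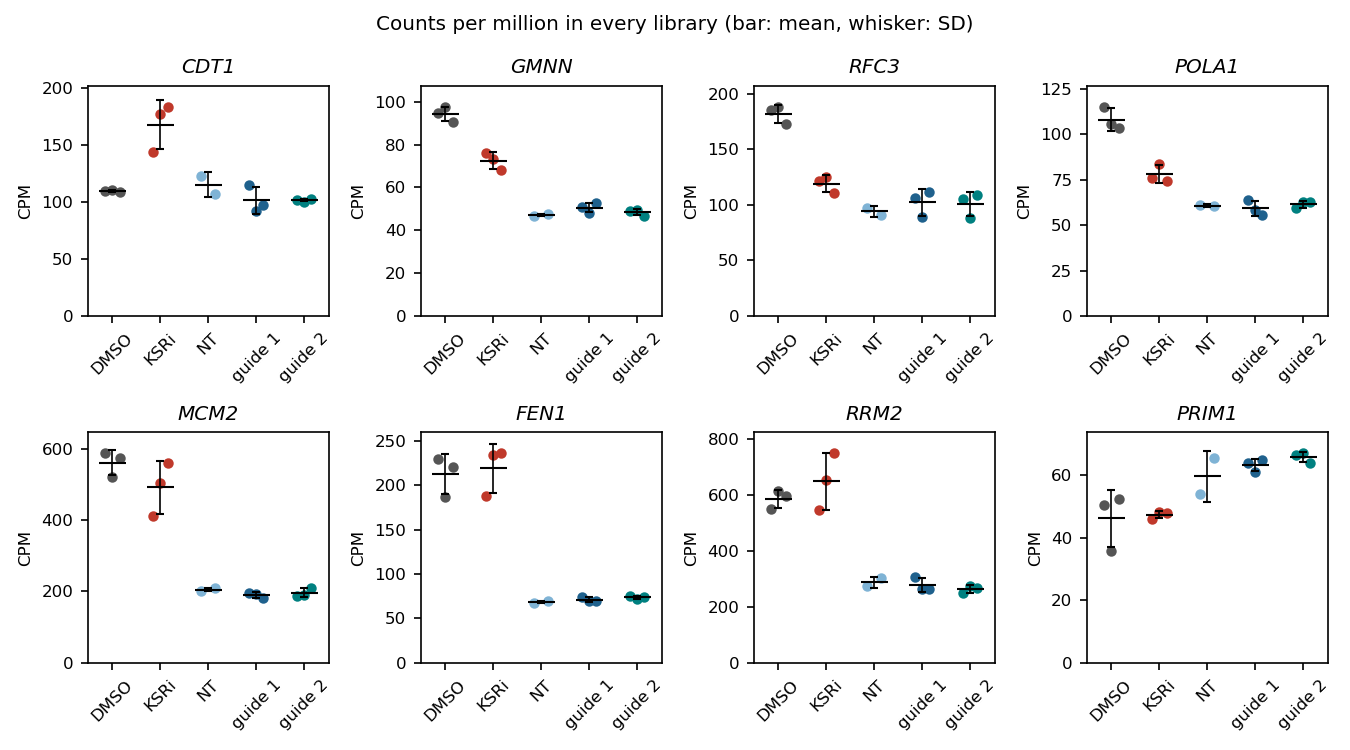
CPM of 8 genes in every library (points), by group, with the group mean (bar) and SD (whisker); every vertical axis starts at 0. *CDT1* is highest with KSRi, *GMNN*, *RFC3* and *POLA1* step down from DMSO to KSRi to the guide arm, *MCM2*, *FEN1* and *RRM2* are lowest in the guide arm, and *PRIM1* is highest there.

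Other genes of the pathway and of its neighbours were read from 5 further lists. With the inhibitor 22 of 40 further replication genes fell and 8 rose (median log2 change −0.27), beside 18.7% and 22% of all tested genes. *TIPIN*, of the fork protection complex, went from 43.0 ± 0.519 CPM to 30.0 ± 0.629 (SD, n = 3 each), topoisomerase *TOP1* from 351, 337 and 347 in single libraries to 258, 248 and 238, the checkpoint kinase *CHEK1* from 177 ± 5.79 to 138 ± 1.42 and the nuclease *DNA2* from 108 ± 7.83 to 76.0 ± 10.4. All 4 fell, with no overlap between libraries. *TIMELESS*, the partner of TIPIN named after its values were seen, rose by 0.54 (adjusted p = 0.000771). Without KSRi replicate 1 the list had 24 falls and 7 rises.

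Purine synthesis had 11 falls and 1 rise among 15 genes (median −0.36), while the remaining pyrimidine, folate and dNTP genes had 5 falls and 5 rises among 20 tested (median −0.11). *ADSL*, adenylosuccinate lyase, fell from 32.1 ± 1.18 to 19.4 ± 1.06 CPM, *ADSS2* from 103 ± 2.39 to 66.6 ± 4.83, *PAICS* from 876 ± 38.3 to 594 ± 25.4 and *PPAT*, which catalyses the committed step, from 149.9 ± 7.84 to 99.1 ± 9.1. Their log2 changes ran from −0.73 to −0.56. On the pyrimidine side *UMPS* and *DCTPP1* fell by 0.38 and 0.48 on the log2 scale, and the mitochondrial folate enzyme *MTHFD2* rose from 337 ± 11.9 to 556 ± 87.2 CPM (log2 change 0.73 ± 0.09 (SE), adjusted p = 1.06e-05). *NME1* fell from 9.53 ± 0.792 to 5.99 ± 0.298, but it overlaps a readthrough gene and has a near-identical neighbour, so its counts are uncertain. Without KSRi replicate 1 purine synthesis had 11 falls and 3 rises and the pyrimidine list 4 and 5.

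Of 16 genes of the E2F and RB axis 7 fell and 1 rose. *E2F5*, *E2F7*, *E2F4* and *RBL1* fell by 0.63, 0.50, 0.36 and 0.39 on the log2 scale. The activator *E2F3* also fell, by 0.21 (adjusted p = 0.00652), while the repressor *E2F8* and the RB-family gene *RBL2* did not pass (0.15 and 0.12), so the changes did not divide by activator and repressor. *E2F1*, another activator and the 1 gene that rose, went from 81.5, 73.4 and 79.0 to 96.9, 111 and 95.5 CPM (log2 change 0.37 ± 0.11 (SE), adjusted p = 0.0147). Mitotic genes, which act after replication, had 17 falls and no rise among 24 (median −0.36), with *PLK1* at 264, 238 and 252 CPM with DMSO and 145, 167 and 171 with KSRi and *KIF23*, *BUB1B* and *BUB1* falling by 0.67, 0.46 and 0.37. Without KSRi replicate 1 these lists had 7 falls and 1 rise, and 16 falls and no rise. The difference between the lists was not tested.

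**Figure D5:**
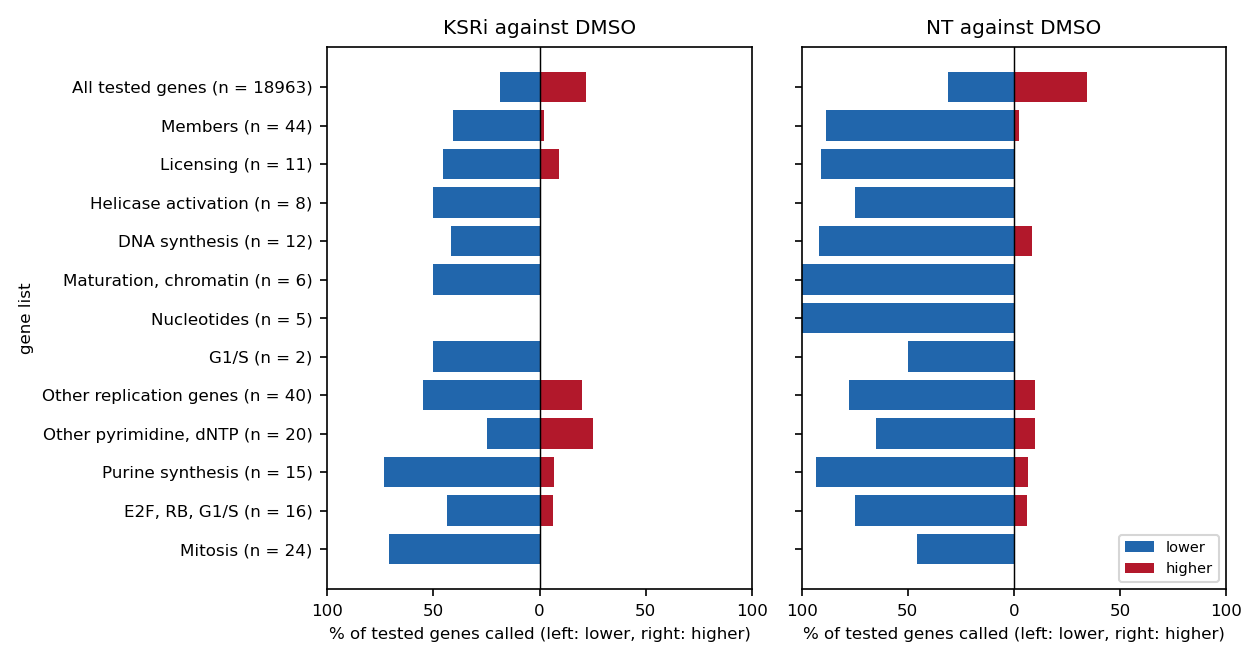
Share of tested genes that passed the test as lower (blue, to the left) or higher (red, to the right) for KSRi against DMSO and for NT against DMSO, in all tested genes, in the 44 members and their roles, and in the other lists (rows, with the number tested). With the inhibitor 40.9% of the members fell beside 18.7% of all tested genes; with NT 88.6% were lower beside 31.2%.

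The guides, which lowered *KSR2* itself, were compared with NT in the same fit. With both guides against NT 0 of the 44 genes passed, beside 0.0158% of all tested genes (3 genes, all lower). The edgeR fit gave 1 of the 44 an unadjusted p under 0.05, and DESeq2, limma-voom and 14 further settings also called 0. Log2 differences ran from −0.18 to 0.17 with a median of −0.01. All 44 intervals lay inside 1.5-fold (bounds −0.39 to 0.34) and 36 lay inside 1.25-fold. Libraries did not overlap for 4 genes on the lower and 4 on the higher side, beside 5.15% and 4.41% of all tested genes.

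The 4 genes with the lowest p were *CCNE2*, *CDT1*, *E2F2* and *ORC1*. *CCNE2* stood at 33.7 and 35.1 CPM with NT, 36.2, 39.3 and 43.0 with guide 1 and 36.2, 40.2 and 37.6 with guide 2, higher in 6 of 6 guide libraries (log2 difference 0.17 ± 0.08, unadjusted p = 0.0467, edgeR adjusted p = 0.989). With KSRi this gene had fallen. *CDT1*, which rose with KSRi, stood at 123 and 107 with NT, 115, 92.6 and 97.0 with guide 1 and 102, 100.5 and 103 with guide 2 (−0.18 ± 0.09). *E2F2* stood at 106 and 96.7 with NT, 92.9, 89.7 and 82.8 and 91.5, 89.7 and 88.4 with the guides (−0.18 ± 0.10), and *ORC1* at 44.5 and 49.2, 41.0, 42.7 and 42.8 and 39.4, 43.1 and 47.2 (−0.13 ± 0.08). None passed after adjustment (all adjusted p = 0.989).

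Guide by guide, 0 of the 44 passed for guide 1 (0.00527% of all tested genes, 1 gene), for guide 2 (0.0105%, 2 genes) or between the guides (0.00527%, 1 gene). Unadjusted p was under 0.05 for 2, 0 and 0 of the 44, and DESeq2 also called 0 in each. The 2 with guide 1 were *GINS3* (log2 difference −0.25 ± 0.11) and *CCNE2* (0.20 ± 0.09). Medians over the 44 were −0.04 for guide 1 and 0.01 for guide 2. The MCM2-7 genes lay between −0.09 and 0.13 for both guides together, and the member clamp loader genes between −0.01 and 0.11.

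The largest difference in these genes was between the control groups of the arms. Of the 44 genes 39 were lower with NT than with DMSO, 1 was higher and 4 did not pass (*CDT1*, *CDC7*, *CDC45*, *E2F2*), beside 31.2% of all tested genes lower and 34.6% higher (65.8% in either direction). The median log2 difference was −0.92 against 0.04 for all tested genes, and 31 of the 44 passed with at least 1.5-fold. Libraries did not overlap for 42 genes on the lower side (37.8% of all tested genes) and for 1 on the higher side (41.5%). Solvent, transduction and any batch between the arms cannot be told apart in this design. The markers of other lineages also differed, with sums of 138 to 168 CPM with NT, 88.6 to 105.0 with DMSO and 107 to 114 with KSRi; most of this was *CD79A* and *PECAM1*. The mitochondrial share was 1.85% to 2.50% with NT, above all DMSO libraries (1.27% to 1.45%), and of 10 T-lineage markers 4 were higher and 4 lower with NT. The part of these differences in the result was not tested.

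*FEN1* (ENSG00000168496; chromosome 11, 61792637 to 61797244), the flap nuclease of Okazaki fragments, stood at 229, 187 and 221 CPM with DMSO and 67.5 and 69.2 with NT (log2 change −1.64 ± 0.10 (SE), adjusted p = 7.02e-10), the largest difference of the 44. *UHRF1* stood at 583 with DMSO and 212 and 225 with NT (log2 change −1.42 ± 0.09 (SE), adjusted p = 6.86e-10), *MCM4* at 588 and 204 and 232 (log2 change −1.43 ± 0.09 (SE), adjusted p = 1.06e-09) and *CAD* at 419 and 160.2 and 164 (log2 change −1.37 ± 0.09 (SE), adjusted p = 9.03e-10). All NT libraries of these genes were below all DMSO libraries. All 6 MCM2-7 genes were lower, by −0.86 to −1.45 on the log2 scale, as were all 4 GINS genes (−0.96 to −1.24), the member genes of ribonucleotide reductase (*RRM1*, *RRM2*), of the clamp loader (*RFC2* to *RFC5*) and of nucleotide supply. Of these, *RFC4* had a small difference (−0.23) and lost its call under 5 of 13 alternatives, and *TK1* lost its call under 4 of 13. Outside the members, the clamp loader gene *RFC1* (−0.09 ± 0.09) and the alternative reductase subunit gene *RRM2B* (−0.09 ± 0.08) did not pass. *RRM2* stood at 587 CPM with DMSO and 273 and 302 with NT, and *PCNA* at 381 and 164 and 193.

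The DBF4-dependent kinase and the primase complex were uneven. *CDC7* stood at 109.7 and 101 with NT and did not pass (−0.17 ± 0.10), while *DBF4* was lower (log2 change −0.61 ± 0.12 (SE), adjusted p = 0.000217). *PRIM1* (ENSG00000198056; chromosome 12, 56731596 to 56752373) was higher with NT, at 53.9 and 65.4 CPM against 50.5, 35.7 and 52.3 with DMSO (log2 change 0.37 ± 0.12 (SE), adjusted p = 0.0127), and stood at 63.9, 61.0 and 64.9 with guide 1 and 66.6, 67.0 and 64.0 with guide 2; it was named after its values were seen. The call rested on DMSO replicate 2 and NT replicate 2, since leaving out either took its adjusted p past the threshold. *CDT1* differed by 0.07 ± 0.10. With upper-quartile scaling, which moved the median of all tested genes to 0.26 from 0.04 and the higher share of all called genes to 66.4% from 52.6%, 35 of the 44 were lower (median −0.70) and *PRIM1* and *CDT1* higher.

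Of the other lists, purine synthesis had 14 of 15 genes lower with NT and 1 higher (median −1.18), further replication genes 31 of 40 lower and 4 higher (−0.55), and the E2F and RB axis 12 of 16 lower and 1 higher (−0.58). Mitotic genes had 11 of 24 lower and none higher (−0.21). The comparisons of KSRi and of NT share the DMSO libraries, so their values are given only side by side: *RFC3* was −0.61 with KSRi and −0.95 with NT, *POLA1* −0.47 and −0.83, *FEN1* 0.04 and −1.64, *RRM2* 0.15 and −1.03, and *CDT1* 0.61 and 0.07.

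The effects in the inhibitor and guide arms were compared as the KSRi effect (against DMSO) minus the guide effect (both guides against NT) in the same edgeR fit. The control groups of the arms differed in these genes, so a difference by agent and a difference by arm cannot be told apart. For 11 of the 44 genes the inhibitor's effect was lower, for 2 it was higher and for 31 the difference did not pass, beside 12.1% and 16.6% of all tested genes (28.6% in either direction). The largest differences were *CDT1* (log2 difference of effects 0.79 ± 0.13 (SE), adjusted p = 0.000296), *RFC3* (−0.72 ± 0.13, adjusted p = 0.000751) and *CCNE2* (−0.63 ± 0.11, adjusted p = 0.000619). *GMNN*, *POLE*, *POLA1*, *RFC4*, *MCM10*, *MCM4*, *CDC7*, *UHRF1* and *MCM3* were the others on the lower side and *E2F2* (0.43) on the higher. *CDT1*, *RFC3*, *CCNE2*, *GMNN*, *POLE*, *POLA1* and *RFC4* were called under all 21 alternatives of fit, scaling, filter or library, and without NT replicate 1 they were the 7 called. *MCM6* and *ORC1*, which fell with KSRi, differed by −0.20 and −0.13 and did not pass, so for them no difference between inhibitor and guides was shown. Without KSRi replicate 1, 12 were lower and 5 higher.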

How the data were processed

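For 14 Jurkat libraries the authors deposited raw counts of each Ensembl gene as whole numbers; GRCh38 and the tools DESeq2 1.42.1 and STAR 2.7.11b are named, without their roles, per the submitters' processing notes. The read-counting program, its use of strand and its annotation are unknown here (not given in the sources used here), which matters for overlapping, antisense and near-identical genes. A gene name table gave symbols to 61369 of the 61541 identifiers; positions and exon lengths are from GENCODE 29 (GRCh38) and promoter windows from RefSeq (GRCh38.p14). The members and lists were chosen with earlier results of these data known.

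Differences were tested in edgeR 4.0.16 (R 4.3.3), with TMM factors, filterByExpr by group (18963 genes, at least 99.93% of each library's counts), a model of 1 mean per group fitted to the 14 libraries together, since NT alone has 2, and the quasi-likelihood F test with Benjamini-Hochberg adjustment over all tested genes (threshold 0.05). The common biological coefficient of variation was 8.6%. CPM values use TMM-scaled library sizes; errors are SDs between libraries or SEs of log2 changes. No replicate pair agreed within sampling noise (chi-square over its degrees of freedom was 5.83 to 49.9, highest between KSRi libraries), so all were kept.

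Values in every library of the groups compared are given for up to 4 members per role with the lowest p for KSRi against DMSO. The same holds for members called higher with KSRi, and for up to 4 with the lowest p for NT against DMSO and for both guides. Up to 4 genes of each other list are given by single libraries, by mean and SD, or by log2 change alone. Further genes are given by their differences or were named after their values were seen. The tests were repeated with DESeq2 1.42.0, with limma-voom (limma 3.58.1), with RLE or upper-quartile factors, without a filter or with 5 CPM in 3 libraries, on the compared groups alone, with replicate number as a block, with each library omitted in turn, and at stricter thresholds.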

Additional observations from a re-analysis of the deposited data

How the results depend on the processing

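No called change among the 44 genes reversed its direction under the alternatives; log2 differences of genes that were not called crossed 0 under some. Over all genes, the calls for both guides were 3 lower in the main fit, and 2 higher and 1 lower without NT replicate 2. For guide 1 they were 1 lower in the main fit, and 3 higher and 2 lower without NT replicate 1. These are counts of calls, and whether the same genes were called was not compared. For KSRi against DMSO 12 of the 44 passed at an adjusted p under 0.01 and 2 at 1.5-fold or more; leaving out 1 library gave 13 to 23 (6209 to 8928 of all genes), and 3414 of all genes passed at 1.5-fold. For NT against DMSO leaving out 1 library gave 38 to 40 of the 44 (10722 to 11821 of all genes). With the guides 0 of the 44 were called under all settings run; over all genes, without the filter 41 were called for both guides, 35 for guide 1, 35 for guide 2 and 13 between the guides, and with DESeq2 9, 9, 6 and 2. For both guides limma-voom and an adjusted p under 0.01 each called 1. Leaving out 1 library gave 1 to 3 genes for both guides, 1 to 5 for guide 1, 2 to 4 for guide 2 and 1 to 2 between them, the highest for each single guide without NT replicate 1. For the difference between inhibitor and guides 7 of the 44 passed at 0.01 and 3 at 1.5-fold, 7 to 17 with 1 library left out, and over all genes 2908 at 0.01, 3111 at 1.5-fold and 3366 to 7377 with 1 library left out (lowest without NT replicate 1, highest without KSRi replicate 1). Stricter thresholds call fewer genes by construction; the cause of the other shifts was not tested.

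Same-numbered replicates did not deviate together (26 pairs, r from −0.18 to 0.11, 1 above 0.1), so the numbers were not treated as pairs. With the replicate block 16 of the 44 passed for KSRi against DMSO, 40 for NT against DMSO, 11 for the difference of effects, and 2 of all genes for guide 1. Fitting only the groups compared left 14 for KSRi against DMSO. With 2 NT libraries and at least 21710466 counts a library, the 95% intervals of the 44 genes for both guides reached a median of 0.17 (log2) to either side. This width is without adjustment and is not the smallest change the adjusted test could call. The largest differences of the 44, −0.18 and 0.17, did not pass in edgeR (lowest adjusted p of the 44 0.989). The smallest change that the adjusted test could call was not estimated.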
